A study of Mus musculus with 9 samples.

Results

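The alpha- and beta-tubulin transcripts of MC38 cells were described through 9 genes, Tuba1a, Tuba1b, Tuba1c, Tubb2a, Tubb2b, Tubb3, Tubb4b, Tubb5 and Tubb6. They were taken by gene symbol from the 16509 genes of the deposited expression table, and all 9 passed the filter on low counts. In cells treated with Cadict, Tuba1c rose 2.82-fold over Ctrl cells, whereas Tubb4b was 2.76-fold lower and Tubb5 was 2.01-fold lower, all with TMM scaling. Scaled by library totals the log2 changes were 0.54, -2.42 and -1.96, so that Tuba1c was no longer called, and Tubb5 was not called with DESeq2 size factors. The share of Tuba1c among the 3 alpha transcripts went from 12.2% in Ctrl cells to 40.0% in Cadict-treated cells. Reads of these 3 near-identical genes were divided by estimation, so their split is less certain than their sum. The log2 change of the sum was -0.10 with TMM and -1.05 with library totals. Cu-Cys-treated cells showed no tubulin change of 2-fold or more, and Tuba1a, Tubb2a and Tubb2b were lower there.

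MC38 is a mouse colon carcinoma line, and all 9 libraries came from it, with 3 libraries in each group. Ctrl cells received the vehicle, which the sample labels give as DMSO and the study's methods as PBS. Cu-Cys cells received the copper and cystine assembly, and Cadict cells received the nanodrug that adds glucose oxidase (GOx) and the EGFR-binding peptide GE11 to copper and cystine. The comparisons therefore ask what the copper and cystine assembly does to tubulin transcripts and what the complete nanodrug adds, and 2 comparisons that use the same group share its libraries. No dose or time of treatment is stated for these libraries. The study's methods say in general that in vitro experiments were repeated independently, and its legends count 3 per group for RNA sequencing. The sample labels do not say whether the 3 libraries of a group came from separate cultures, and the p-values measure the spread between these libraries. RNA was taken in bulk, so a change in every cell and a change in some of the cells cannot be told apart.

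Alpha- and beta-tubulin are the paired subunits from which microtubules are built, and mammalian cells encode each in several closely related genes, called isotypes. Newly made tubulin is captured by prefoldin, folded by the cytosolic chaperonin and joined into dimers by the tubulin cofactors. Cells also adjust tubulin mRNA to the amount of free dimer: the protein TTC5 recognises the first residues of a tubulin chain as it leaves the ribosome and recruits SCAPER and the CCR4-NOT deadenylase, which destroy the message. In tumour lines, tubulins are the targets of taxanes and vinca alkaloids.

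The first 12 coding bases are shown because that autoregulation reads the residues they encode, and because they show how alike the members are. They were read from GRCm38 with GENCODE M21, 5′ to 3′ on the coding strand, with the fourth codon in capitals, which is TGC in the alpha genes and ATC in the beta genes shown.
Tuba1a: atgcgtgagTGC
Tuba1b: atgcgtgagTGC
Tuba1c: atgcgtgagTGC
Tubb2a: atgcgcgagATC
Tubb2b: atgcgagagATC
Tubb3: atgagggagATC
Tubb4b: atgagggagATC
Tubb5: atgagggaaATC
In the 3 alpha genes these bases were identical and split by an intron after the start codon: for Tuba1c, on the plus strand, exon 1 holds chr15:99030422-99030424 and exon 2 holds chr15:99034094-99034102. The other alpha start codons, on the minus strand, lie at chr15:98953451-98953453 in Tuba1a and chr15:98934333-98934335 in Tuba1b. In the beta genes all 12 bases lie in exon 1, at chr13:34077918-34077929 in Tubb2a, chr13:34130222-34130233 in Tubb2b and chr2:25224579-25224590 in Tubb4b, each on the minus strand. Tubb5 has them at chr17:35838042-35838053 on the minus strand, and Tubb3 at chr8:123411606-123411617 on the plus strand. The second codon also differed in its bases between alpha and beta genes, and among the beta genes, but each form shown encodes arginine. Tubb3 and Tubb4b shared all 12 bases. Tubb6 is named only.

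Library totals lay between 17905771 and 18293056 expected counts. The TMM factors that scale them were 1.26 to 1.27 in Ctrl, 1.21 in Cu-Cys and 0.6395 to 0.6654 in Cadict libraries, and the reason for this difference was not tested. TMM-scaled CPM (counts relative to a scaled library size) was used between groups, and TPM (a level per transcript length) between genes. A count of 0 allows up to 3 counts, which was 0.130 to 0.261 CPM. In the pairwise comparison of replicate counts, Cadict replicate 2 stood apart from replicates 1 and 3, with a chi-square per degree of freedom of 14.7 and 23.1 against 3.63 between the latter. Epithelial markers were sparse: Epcam was listed at 0 TPM and Krt8 at 0.170 TPM on average in Ctrl cells. All 6 summed to 4.19 to 6.21 TPM in Ctrl and 11.6 to 13.2 TPM in Cadict libraries. In Ctrl this was mostly Cdh1 and Krt19 (2.52 and 2.25 TPM on average), and in Cadict mostly Krt19 (8.96 TPM, beside 2.70 TPM for Cdh1). Of 4 intestinal markers 3 were in the table, at 0.64 to 1.47 TPM in Ctrl libraries. The 4 mesenchymal markers, led by Vim, summed to 3021 to 3136 TPM in Ctrl libraries and 1252 to 1378 TPM in Cadict libraries. Vim, Cdh2 and Zeb1 averaged lower in Cadict, while Fn1 did not (116 TPM in Ctrl and 117 TPM in Cadict). Of 5 immune markers 4 were in the table, where Ptprc averaged 0.0467 TPM in Ctrl cells, and the summed level of 6.89 to 7.47 TPM in Ctrl and 14.8 to 18.2 TPM in Cadict libraries was nearly all Cd68. Endothelial markers stayed at or below 1.17 TPM. Marker levels are in TPM, so their differences between groups also depend on the scale and were not tested. The part of these markers in the tubulin values was not tested.

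How far the members can be told apart by reads set the weight of each value. The coding sequences of Tuba1a and Tuba1b were 98.3% identical, those of Tuba1a and Tuba1c 97.1%, those of Tuba1b and Tuba1c 97.9%, and those of Tubb2a and Tubb2b 96.5%. Of all 50-base stretches in their annotated transcripts, 72.9% of Tuba1a, 66.7% of Tuba1b, 52.7% of Tuba1c, 49.6% of Tubb2a and 36.9% of Tubb2b also occurred in another gene. Their counts were fractional in 9 of 9 libraries, that is, reads had been divided among genes by estimation. By contrast Tubb3 and Tubb6 shared no such stretch, Tubb5 shared 0.0892%, and Tubb4b shared 37.8%, mostly with the pseudogene Tubb4b-ps1. These 4 genes had whole counts in 9 of 9 libraries. In Tuba1a, Tuba1b and Tuba1c at least 90.3% of stretches within the coding part were shared, while none beyond the stop codon was. The split of reads among these 3 genes and between Tubb2a and Tubb2b is therefore less certain than their sums. Stretches shared with other members were fewer: 52.0% of Tuba1a, 58.4% of Tuba1b, 51.7% of Tuba1c, 45.6% of Tubb2a and 31.3% of Tubb2b. The sums can thus still miss reads that were assigned to genes outside the 9.

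In Ctrl cells Tuba1b was the most abundant tubulin transcript, at 2705 ± 27.6 TPM (SD, n = 3). Tubb5, the main beta isotype of dividing cells, followed at 1485 ± 34.4 TPM. Tuba1a, best known from developing neurons, came next at 806 ± 29.1 TPM. Tuba1c, the third of the widely expressed alpha genes, stood at 486 ± 6.57 TPM and Tubb4b, a widely expressed beta isotype also used in cilia, at 448 ± 7.18 TPM. Tubb3, the isotype known as a neuronal marker and also found in tumour lines, was at 273 ± 5.40 TPM, although Syt1, the one neuronal marker in the table of 3 listed, was at 0 in all Ctrl libraries. Tubb6 was at 184 ± 2.01 TPM. The brain-enriched pair Tubb2a and Tubb2b was scarce, at 23.5 ± 1.07 and 4.43 ± 0.224 TPM. The 3 Ctrl libraries of each gene did not overlap those of its neighbour in this order.

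The order changed under Cadict. In Cu-Cys cells it was the same as in Ctrl cells, but Tuba1a at 513 ± 10.3 TPM and Tuba1c at 501 ± 16.9 TPM overlapped and could not be ranked. In Cadict cells Tuba1c, at 552 ± 10.9 TPM, moved from rank 4 to rank 2, behind Tuba1b at 642 ± 19.4 TPM and ahead of Tubb5 at 299 ± 18.3 TPM and Tuba1a at 187 ± 3.16 TPM. Tubb3, at 88.7 ± 3.28 TPM, passed Tubb4b, at 65.2 ± 0.278 TPM. Tubb6 followed at 62.1 ± 1.98 TPM, Tubb2a at 14.7 ± 1.94 TPM and Tubb2b at 1.01 ± 0.272 TPM. No neighbours in the Cadict order overlapped.

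The 9 transcripts together made up 6414 ± 28.1 TPM in Ctrl, 5585 ± 192 TPM in Cu-Cys and 1911 ± 31.5 TPM in Cadict cells (SD, n = 3; exact permutation test over the 3 groups, two-sided, p = 0.00357, the smallest that 1680 arrangements can give). They took 0.579 to 0.587% of all counts in Ctrl, 0.519 to 0.549% in Cu-Cys and 0.214 to 0.243% in Cadict libraries. How large this drop was depended on the scale: the sum was 3.36-fold lower in Cadict than in Ctrl cells in TPM, but 1.34-fold lower in TMM-scaled CPM, from 4611 ± 55.8 to 3431 ± 319 CPM. TPM sums to the same total in every library, so a rise of other transcripts lowers it. The TMM value in turn rests on factors of 1.26 to 1.27 in Ctrl and 0.6395 to 0.6654 in Cadict libraries. Neither fold was taken as the truer one.

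**Figure D1:**
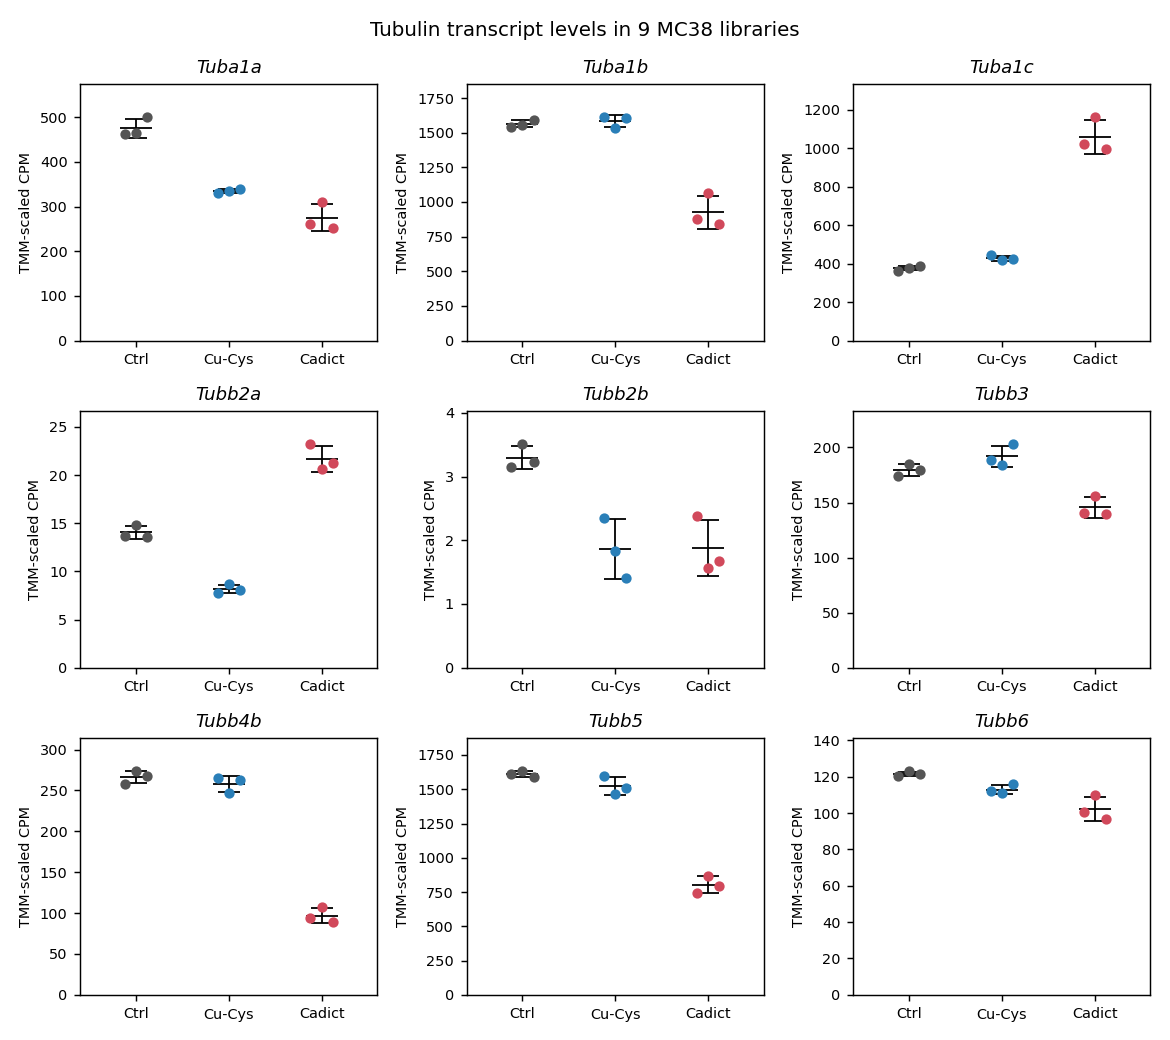
TMM-scaled CPM (vertical axis, from 0) of the 9 tubulin genes in Ctrl, Cu-Cys and Cadict libraries; points are single libraries, with replicates 1 to 3 from left to right, and bars the mean and SD of 3. Tuba1c at 996 to 1161 CPM and Tubb2a at 20.7 to 23.2 CPM were highest in Cadict, while Tubb4b at 89.3 to 107 CPM and Tubb5 at 747 to 870.5 CPM were lowest there.

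Relative to Ctrl, all 9 tubulins passed an adjusted p of 0.05 in Cadict cells by edgeR's quasi-likelihood test, 2 higher and 7 lower. The same was true of 87.7% of the 11949 genes tested, 40.6% higher and 47.1% lower, so this count does not set the tubulins apart. A gene was called where its fold reached 2 with an adjusted p no larger than 0.001, and 3 of 9 were (33.3%), against 47.8% of all genes. Tuba1c was called higher (20.7% of all genes), and Tubb4b and Tubb5 lower (27.1%). The median log2 fold change of the 9 was -0.76, beside -0.13 over all genes tested. All 9 had groups that did not overlap, which held for 87.5% of all genes.

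Among the alpha isotypes, Tuba1c had 363, 379 and 385 CPM in Ctrl replicates 1 to 3 and 1018, 1161 and 996 CPM in Cadict replicates 1 to 3. Each Cadict library was thus far above every Ctrl library. The log2 fold change was 1.50 ± 0.06 (SE; adjusted p = 1.65e-12), and it was above 0 under each scaling tried, at 1.61 with DESeq2 size factors and 0.54 with library totals, where it was no longer called.

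Tuba1b moved the other way. It had 1541, 1557 and 1592 CPM in Ctrl and 878, 1062 and 839 CPM in Cadict replicates 1 to 3. Replicate 2 was the highest of the Cadict libraries, and the groups did not overlap. The log2 fold change was -0.76 ± 0.07 (adjusted p = 5.48e-08), short of 2-fold with TMM. Tuba1a followed, from 462, 465 and 500.3 CPM to 262, 310.3 and 253 CPM (-0.79 ± 0.07, adjusted p = 1.57e-08). Both were below 0 under every scaling tried, and with library totals both were called lower, Tuba1b at -1.71 and Tuba1a at -1.75.

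Since reads of the alpha genes are hard to assign, their counts were also summed, a choice made after seeing that the counts were fractional. The sum was 2367, 2401 and 2477 CPM in Ctrl and 2157, 2533 and 2088 CPM in Cadict replicates 1 to 3, and the groups overlapped because of Cadict replicate 2. The summed log2 fold change was -0.10 ± 0.06 (95% interval -0.23 to 0.04, adjusted p = 0.165). Without Cadict replicate 2 it was -0.19 (adjusted p = 9.44e-05). With DESeq2 size factors it was 0.02, and with library totals -1.05, beside a median of -1.08 over all genes on that scale. The sum therefore lay near the median of all genes, while its parts moved in opposite directions.

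Of the beta isotypes, Tubb4b fell most. It had 258, 273 and 268 CPM in Ctrl and 93.9, 107 and 89.3 CPM in Cadict replicates 1 to 3, with no overlap (log2 fold change -1.46 ± 0.06, adjusted p = 3.94e-12). It was called lower under every scaling tried. Tubb5 had 1612, 1629.7 and 1592 CPM in Ctrl and 747, 870.5 and 791 CPM in Cadict replicates 1 to 3 (-1.01 ± 0.06, adjusted p = 1.32e-10). With TMM it sat on the 2-fold line. With library totals it was called lower at -1.96, whereas the call was lost with DESeq2 size factors (-0.89), with DESeq2's Wald test (-0.89) and without Cadict replicate 1 (-0.96) or replicate 3, although the direction held.

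The remaining beta genes changed less. Tubb3 ranged from 175 to 185 CPM in Ctrl and from 139 to 156 CPM in Cadict (-0.31 ± 0.06, adjusted p = 0.000127). Tubb6, a beta isotype found at low level in many tissues, ranged from 121 to 123 CPM in Ctrl and from 96.7 to 109.8 CPM in Cadict (-0.25 ± 0.05, adjusted p = 0.000412). Both were thus close to the median of all genes, -0.13. Tubb2a had 13.7, 14.8 and 13.6 CPM in Ctrl and 23.2, 20.7 and 21.2 CPM in Cadict replicates 1 to 3 (0.63 ± 0.08, adjusted p = 1.96e-06), but with library totals its value was -0.33, still above the median of -1.08 on that scale. Tubb2b, with only 17.9 to 81.5 counts per library, had 3.16, 3.51 and 3.23 CPM in Ctrl and 2.38, 1.57 and 1.68 CPM in Cadict (-0.81 ± 0.22, adjusted p = 0.00256). Its SE was the widest of the 9. Summed, Tubb2a and Tubb2b gave 0.44 ± 0.08 (adjusted p = 7.9e-05), and -0.51 with library totals.

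**Figure D2:**
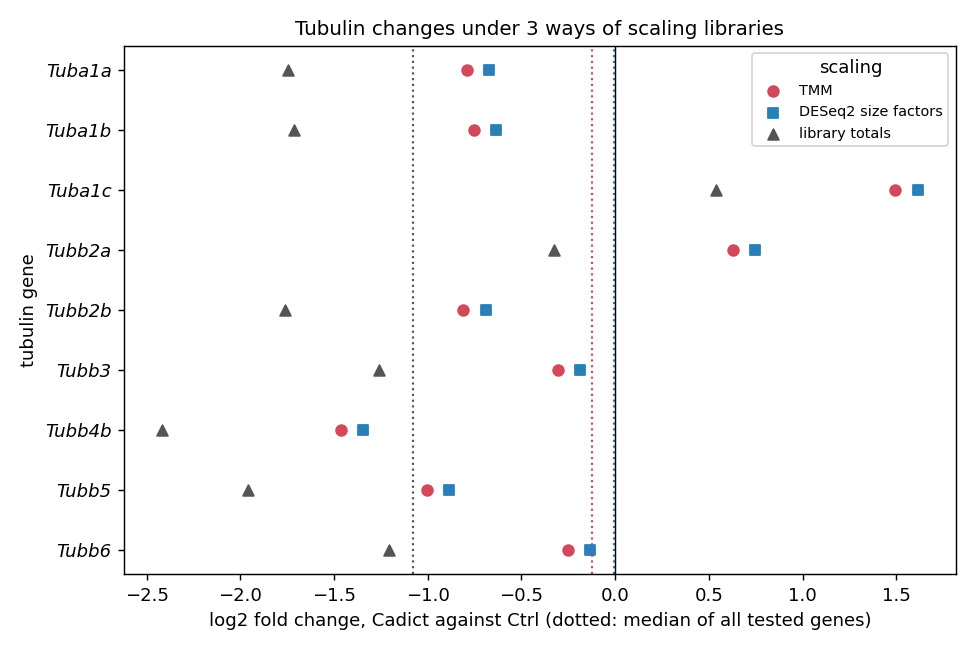
Log2 fold change of each tubulin in Cadict against Ctrl cells (horizontal axis) with TMM (circles), DESeq2 size factors (squares) and library totals (triangles); dotted lines give the median of all tested genes, -0.13, -0.01 and -1.08. The order of the genes along the axis is nearly kept, and Tuba1c lies right of 0 on all 3 scales, while Tubb2a lies left of it only with library totals.

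The bases upstream of Tuba1c, Tuba1b and Tubb4b are shown because these genes moved in different directions under Cadict. Each holds the 250 bases before the RefSeq start (GRCm38.p6), 5′ to 3′ on the coding strand. Capitals mark TTCNNGAA, a pair of inverted heat shock factor half-sites, and CCAAT or its reverse complement ATTGG, the box bound by NF-Y.
Tuba1c (chr15:99029641-99029890, plus strand): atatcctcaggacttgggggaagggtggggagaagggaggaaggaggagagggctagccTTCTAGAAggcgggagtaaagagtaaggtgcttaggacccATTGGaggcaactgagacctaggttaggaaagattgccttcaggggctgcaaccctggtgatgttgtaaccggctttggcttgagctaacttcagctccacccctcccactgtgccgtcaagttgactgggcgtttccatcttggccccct
Tuba1b (chr15:98934391-98934640, minus strand): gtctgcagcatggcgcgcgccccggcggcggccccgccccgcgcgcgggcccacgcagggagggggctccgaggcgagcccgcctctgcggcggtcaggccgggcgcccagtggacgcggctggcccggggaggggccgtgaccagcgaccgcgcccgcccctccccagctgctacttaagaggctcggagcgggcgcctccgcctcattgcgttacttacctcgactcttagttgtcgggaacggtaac
Tubb4b (chr2:25224703-25224952, minus strand): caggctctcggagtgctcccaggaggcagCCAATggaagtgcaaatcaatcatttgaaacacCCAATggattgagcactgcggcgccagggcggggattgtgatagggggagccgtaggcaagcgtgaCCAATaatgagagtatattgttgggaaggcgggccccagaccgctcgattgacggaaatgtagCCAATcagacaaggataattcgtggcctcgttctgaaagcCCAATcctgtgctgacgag
Tuba1c held TTCTAGAA at -191 from the start, and Tubb5 was the other member with a match, TTCATGAA at -236. Both palindromic patterns were searched on both strands, which are the same letters. TTCNNGAA occurred in 2 of the 7 member promoters in the table and in 8.52% of 32851 promoter windows of 300 bases, and GAANNTTC in 0 of 7 and in 7.86%. CCAAT on either strand occurred in 5 of 7 and in 37.4% of all windows. Tubb4b had 5 matches, at -221, -188, -122, -59 and -19, all on the coding strand, Tubb5 had 2, and Tuba1a, Tuba1c and Tubb3 had 1 each. Tuba1b, 75.6% G and C over these 250 bases, and Tubb2a had none. In GENCODE the Tuba1b gene reaches to chr15:98934565, inside its window, so part of that window lies within the gene. The windows of Tuba1c and Tubb4b lie outside their GENCODE genes. A match of letters is a description and not a measured site.

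Shares within the alpha and the beta pool do not depend on how libraries are scaled. Those of Tuba1a, Tuba1b, Tuba1c, Tubb2a and Tubb2b do rest on how shared reads were divided among genes by estimation. Tuba1c made up 12.2 ± 0.179% of the TPM of the 3 alpha genes in Ctrl, 14.3 ± 0.267% in Cu-Cys and 40.0 ± 0.955% in Cadict libraries (SD, n = 3). Tuba1b went from 67.7 ± 0.435% in Ctrl to 71.0 ± 0.390% in Cu-Cys and 46.5 ± 0.913% in Cadict. Tuba1a went from 20.1 ± 0.449% to 14.7 ± 0.447% and 13.5 ± 0.0441%. Thus both treatments had a lower Tuba1a share than Ctrl, whereas the Tuba1b share was higher in Cu-Cys and lower in Cadict. For each of the 3 the exact permutation test over the 3 groups gave p = 0.00357, the smallest possible (0.00536 adjusted over the 9 isotype tests). The exact permutation test of 3 libraries against 3 cannot go below p = 0.1, and each pair of groups gave that value for these 3 genes.

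In the beta pool, Tubb5 kept the largest share, 61.4 ± 0.569% in Ctrl, 60.6 ± 0.844% in Cu-Cys and 56.3 ± 1.18% in Cadict. Tubb4b went from 18.5 ± 0.347% and 18.8 ± 0.107% to 12.3 ± 0.496% in Cadict. Larger shares in Cadict were taken by Tubb3, from 11.3 ± 0.207% to 12.6 ± 0.583% and 16.7 ± 0.241%, and by Tubb6, from 7.60 ± 0.0567% to 7.37 ± 0.236% and 11.7 ± 0.328%. Tubb2a went from 0.971 ± 0.0325% to 0.590 ± 0.0518% and 2.77 ± 0.335%. Adjusted over the 9 isotypes, the exact permutation test over 3 groups gave p = 0.00536 for Tubb2a, Tubb3 and Tubb6, 0.0138 for Tubb5, 0.0201 for Tubb4b and 0.0464 for Tubb2b, for which Cadict and Ctrl, at 0.191 and 0.183%, overlapped. Shares of 1 pool sum to 100%, so these tests are not independent.

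The alpha genes together formed 62.3 ± 0.704% of the TPM of the 9 genes in Ctrl, 62.5 ± 0.303% in Cu-Cys and 72.2 ± 0.909% in Cadict (SD, n = 3; exact permutation test over 3 groups, two-sided, p = 0.025). All 3 Cadict libraries, at 71.3 to 73.1%, were above all 6 others, at 61.8 to 63.1%. The difference between Cadict and Ctrl of 9.92 percentage points gave p = 0.1 in the exact permutation test, the smallest possible with 3 against 3. Ctrl and Cu-Cys differed by 0.191 percentage points (exact p = 0.7).

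**Figure D3:**
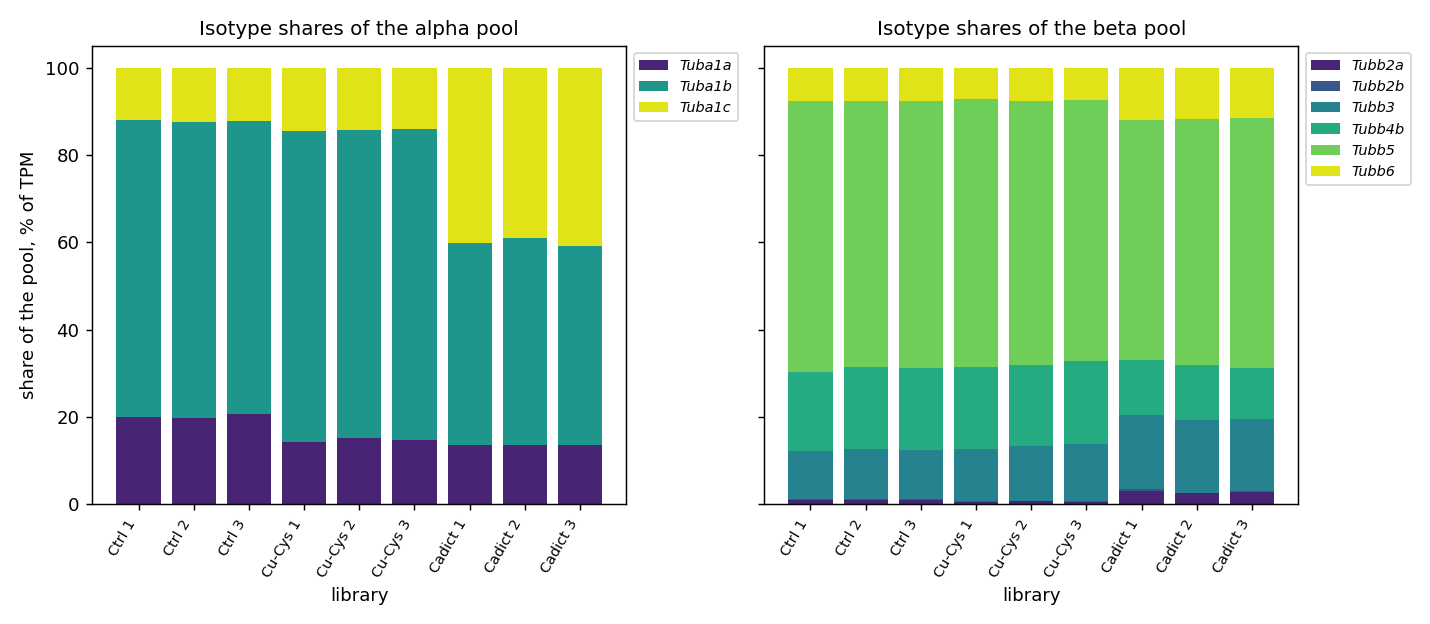
Share of each isotype in the summed TPM of the 3 alpha genes (left) and the 6 beta genes (right) in each library, in percent from 0 to 100. In the 3 Cadict libraries the Tuba1c band widens to 38.9 to 40.8% of the alpha pool and the Tubb4b band of the beta pool narrows to 11.7 to 12.6%.

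In Cu-Cys cells 0 of 9 tubulins were called against Ctrl by edgeR, where 1.64% of all genes were (1.47% lower), and DESeq2's Wald test also called 0. At an unadjusted p under 0.05 there were 4, and the same number passed an adjusted p of 0.05, 1 higher and 3 lower, beside 45% of all genes (22.6% higher and 22.4% lower). The median of the 9 was -0.08, beside 0.01 over all genes. Groups did not overlap for 5 of 9, against 61.2% of all genes.

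Tuba1a fell under Cu-Cys, from 462, 465 and 500.3 CPM to 329.7, 336 and 339 CPM in replicates 1 to 3 (log2 fold change -0.51 ± 0.07, adjusted p = 2.76e-05). Tubb2a fell to 7.80, 8.64 and 8.03 CPM (-0.78 ± 0.08, adjusted p = 4.26e-06) and Tubb2b to 2.35, 1.83 and 1.41 CPM (-0.82 ± 0.19, adjusted p = 0.00237). Every Cu-Cys library of these 3 genes was below every Ctrl library. Tuba1c was slightly higher, at 443, 416 and 423 CPM (0.19 ± 0.06, adjusted p = 0.0185).

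The most abundant isotypes did not pass the test in Cu-Cys cells. Tuba1b had 1612, 1532 and 1607 CPM (log2 fold change 0.02, 95% interval -0.13 to 0.17, adjusted p = 0.855) and Tubb5 1595, 1462 and 1509 CPM (-0.08, -0.20 to 0.04, adjusted p = 0.26). For Tubb4b the interval ran from -0.17 to 0.08, for Tubb3 from -0.03 to 0.21 and for Tubb6 from -0.22 to 0.00. Changes of 2-fold lay outside all 5 intervals. The sum of the 3 alpha genes gave -0.04 (-0.18 to 0.09, adjusted p = 0.625).

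**Figure D4:**
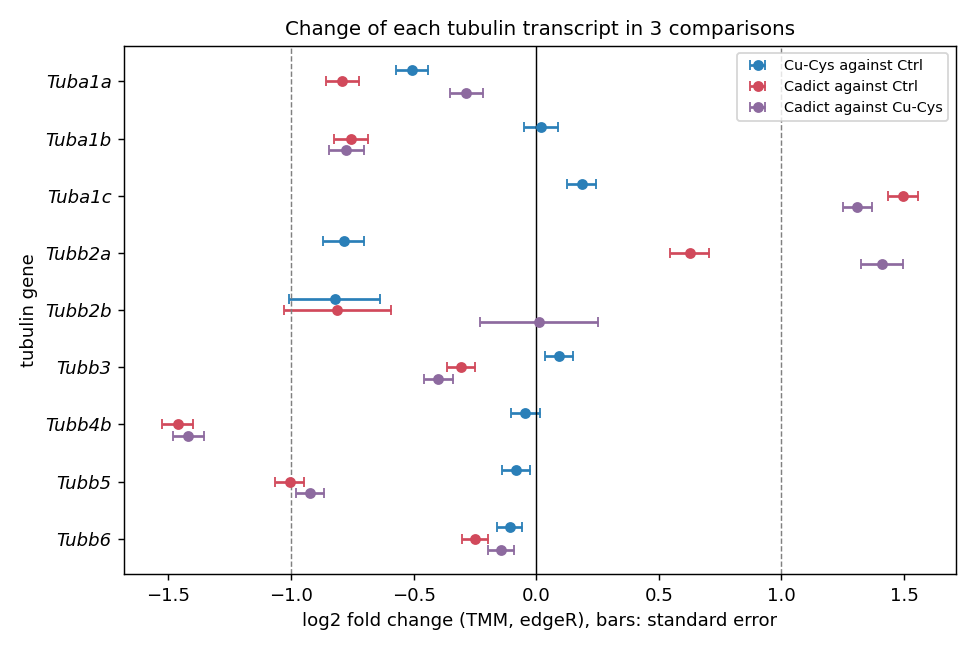
Log2 fold change with its SE (horizontal axis) of the 9 tubulins in the 3 comparisons, from edgeR with TMM; dashed lines mark 2-fold. Tubb2a lies on opposite sides of 0 in Cu-Cys and Cadict against Ctrl, at -0.78 and 0.63 with TMM (-0.85 and -0.33 with library totals), and Tubb4b lies left of -1 in both comparisons of Cadict and at -0.04 in Cu-Cys against Ctrl.

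Between Cadict and Cu-Cys cells, which differ by GOx and GE11, 3 of 9 tubulins were called, 2 higher and 1 lower, against 42.2% of all genes (18.6% higher and 23.6% lower). At an adjusted p of 0.05 there were 8 of 9, 2 higher and 6 lower, against 85.9% of all genes (40.3% higher and 45.6% lower), and 8 of 9 had groups without overlap, against 85%. Tubb2a was higher in Cadict (log2 fold change 1.41 ± 0.09, adjusted p = 3.06e-10), as was Tuba1c (1.31 ± 0.06, adjusted p = 9.66e-12). Tubb4b was lower (-1.42 ± 0.06, adjusted p = 7.26e-12). With library totals Tubb2a and Tuba1c stayed positive, at 0.53 and 0.42, without a call.

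Tubb2a was the one member that passed the test in opposite directions against Ctrl in the 2 treatments with TMM, whereas both values were below 0 with library totals (-0.85 in Cu-Cys and -0.33 in Cadict). It was at 7.80 to 8.64 CPM in Cu-Cys, 13.6 to 14.8 CPM in Ctrl and 20.7 to 23.2 CPM in Cadict, and the 1.41 above is the test of Cadict against Cu-Cys. Its sum with Tubb2b gave 1.23 ± 0.09 (adjusted p = 1.4e-09). Tubb5 was lower in Cadict than in Cu-Cys by -0.92 ± 0.06 on the log2 scale, Tuba1b by -0.77 ± 0.07, Tubb3 by -0.40 ± 0.06 and Tuba1a by -0.28 ± 0.07. Tubb6 gave -0.14 ± 0.05 (adjusted p = 0.022), near the median of -0.10 over all genes. For Tubb2b the value was 0.01 (95% interval -0.50 to 0.52, adjusted p = 0.969), an interval from 0.705-fold to 1.44-fold, and with library totals it was -0.87.

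The likeness of 2 patterns was measured as the root mean square difference of log2 CPM, centred on the Ctrl mean, over the 9 libraries. Tubb3 and Tubb6 were nearest to each other (0.122), as were Tuba1b and Tubb5 (0.163). Tubb4b was also nearest to Tubb5 (0.267), and Tuba1a and Tubb2b to each other (0.262). Tuba1c had no close member, its nearest being Tubb2a at 0.751. Among all genes tested, the 5 nearest to the summed CPM of the 9 tubulins were Nelfe (0.0252), Pygo2 (0.0309), Fam216a (0.0393), Ppp1r7 (0.0402) and Ap1b1 (0.0457). Nelfe encodes a subunit of the negative elongation factor, Pygo2 a coactivator of Wnt signalling, Ppp1r7 a regulatory subunit of protein phosphatase 1 and Ap1b1 a subunit of the clathrin adaptor AP-1.

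The other alpha and beta tubulins were few in these cells. Of 7 listed, 2 passed the filter on low counts. Tuba4a, an alpha isotype outside the 9, also had fractional counts, and 0.807% of its 50-base stretches occurred in another gene. It stood at 98.6 ± 3.16 TPM in Ctrl, 128 ± 2.41 TPM in Cu-Cys and 65.2 ± 2.12 TPM in Cadict. It was at 2.34 to 2.55%, 3.52 to 3.77% and 4.63 to 4.79% as much as the 3 alpha genes together. Its log2 fold change was 0.52 ± 0.07 in Cu-Cys (adjusted p = 2.63e-05) and 0.74 ± 0.07 in Cadict (adjusted p = 4.64e-08), both against Ctrl with TMM, but with library totals the Cadict value turned to -0.22 (adjusted p = 0.00455). Tuba3b, a testis-type alpha isotype named here after its values were seen, was at 0 counts in all Ctrl libraries and at 20, 22 and 15 counts in Cadict replicates 1 to 3. With TMM scaling its mean in Cadict was 12.4-fold above the limit of 3 counts in a Ctrl library. This ratio leaves out the counting error in Cadict and depends on the scale. With library totals, which were nearly equal, it would be smaller, as 15 to 22 counts stood against that limit of 3. Tuba3b was at 1.12 ± 0.147 TPM in Cadict, and 29.5% of its 50-base stretches occurred in another gene, mostly Tuba3a.

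All 8 subunits of the cytosolic chaperonin were called higher in Cadict than in Ctrl cells (100% against 20.7% of all genes called higher), with a median of 1.84. Cct7 went from 454 ± 8.15 to 2396 ± 136 CPM (SD, n = 3), a log2 fold change of 2.40 ± 0.05 (SE), and Cct3 reached 2183 ± 123 CPM, a log2 fold change of 2.33 ± 0.05. With library totals all 8 stayed above 0, with 3 called. In Cu-Cys cells all 8 passed an adjusted p of 0.05, each higher than Ctrl, with a median of 0.36 and no call. Of 15 prefoldin, tubulin cofactor and related genes, 6 were called higher and 2 lower in Cadict, against 20.7% and 27.1% of all genes. Their median was 0.94, and 11 were called higher with DESeq2 size factors. Tbce, a cofactor of dimer assembly, gave 2.24 ± 0.07 and Pfdn2, a prefoldin subunit, 1.95 ± 0.07, while Tbcd, the cofactor that holds beta-tubulin, gave -1.40 ± 0.07. Tbcc, the cofactor that completes dimer release, was the other one called lower. With library totals the median of these 15 was -0.01, beside -1.08 over all genes. On that scale 7 were above and 8 below 0, with 1 called higher and 3 lower. The shares of all genes called with DESeq2 size factors and with library totals are not given, so the counts on those scales have no background beside them.

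The machinery of tubulin mRNA autoregulation gave 1 call higher and 3 lower among 12 genes in Cadict cells (33.3%, against 47.8% of all genes), with a median of -0.54. Ttc5, which reads the nascent tubulin chain, went from 16.1 ± 1.41 to 2.08 ± 0.273 CPM (-2.95 ± 0.14, adjusted p = 9.18e-12). Of the CCR4-NOT genes, Cnot6, a deadenylase subunit, gave -1.77 ± 0.07 and Cnot10 1.04 ± 0.05. Scaper gave -0.57 ± 0.10 and was not called. Cnot10 was at 0.09 with library totals and no longer passed the test. In Cu-Cys cells none of the 12 was called, and Ttc5 was at 14.5 ± 0.736 CPM.

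Of 14 genes tested from the gamma-tubulin ring complex, its partners and the gamma, delta and epsilon tubulins, 6 were called lower and 0 higher in Cadict cells, against 27.1% and 20.7% of all genes. The median was -0.95, and 13 of 14 lay below 0 both with TMM and with DESeq2 size factors. Tubgcp5 and Tubgcp6, ring complex subunits, gave -2.66 ± 0.10 and -2.17 ± 0.08. At an adjusted p of 0.05 there were 12 lower (47.1% of all genes) and 1 higher (40.6%), Mzt1, a small subunit of the complex (0.27 with TMM, below 0 with library totals).

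For genes that act on finished microtubules, the counts stand beside 20.7% of all genes called higher and 27.1% called lower, and the shares of lower calls among modifying enzymes and microtubule-associated genes were near the latter. Of 17 tubulin-modifying enzymes tested, 1 was called higher and 5 lower, with a median of -0.41; Ttll12 gave -1.89 ± 0.07 and Ttll1, a polyglutamylase subunit, -1.28 ± 0.09. Of 25 microtubule-associated and plus-end genes, 1 was called higher and 8 lower, with a median of -0.19. Map1b, a structural microtubule-associated protein, went from 131 ± 7.60 to 394 ± 9.99 CPM (1.59 ± 0.05), whereas the related Map1a gave -3.15 ± 0.11 and Clip2, a plus-end protein, -2.46 ± 0.10. With library totals Map1b was at 0.63 and no longer called, which left 0 of the 25 called higher. In Cu-Cys cells 1 of the 25 was called, Mapt, the gene of tau, at -1.50 ± 0.09, named here after its value was seen. Of 11 destabilizing and severing genes, 1 was called higher and 5 lower, and 7 of 11 lay below 0. Kif2c, the kinesin-13 that takes tubulin off microtubule ends, went from 101 ± 2.56 to 10.2 ± 1.28 CPM (-3.31 ± 0.08), and Kif18a, which trims kinetochore microtubules, gave -2.83 ± 0.10. Without Cadict replicate 2 there were 6 called lower instead of 5. Library totals raised the number called lower to 13 of 14 nucleation genes, 9 of 12 autoregulation genes, 11 of 17 modifying enzymes, 16 of 25 microtubule-associated genes and 7 of 11 destabilizing genes, and lowered the median of each list. On that scale the median of all genes was itself -1.08, and the share of all genes called lower is not given. Without that share, these higher counts cannot show whether the lists stand apart from other genes. No list was tested as a whole.

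**Figure D5:**
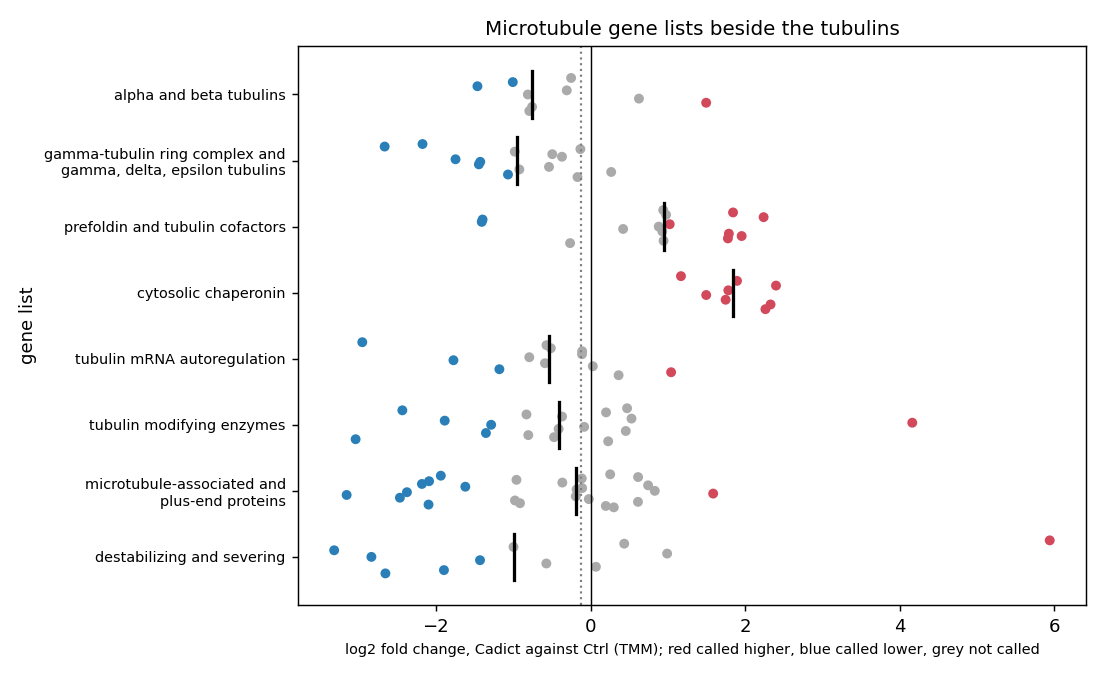
Log2 fold change in Cadict against Ctrl cells (horizontal axis, TMM) of the genes tested in 8 lists; red points were called higher, blue lower, grey not called, black bars are medians, and the dotted line is the median of all genes, -0.13. The 8 chaperonin genes all lie right of 1, while the tubulin median lies at -0.76.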

How the data were processed

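The authors deposited 1 table with, for each of 16509 genes and 9 libraries, an expected count (estimated, not whole for every gene), a TPM, an FPKM and a signal value (counts the authors divided by a size factor, not used here for any result). The submitters' processing notes name HISAT2 2.1.0, Bowtie2 2.3.4.3, RSEM 1.3.1, GRCm39 and GRCh38.p13 without their roles. Columns CC and CCGE were read as Cu-Cys and Cadict, the latter from its components. The labels name a column kit and DNA nanoball sequencing, the study's methods TRIzol and an Illumina instrument. Group averages, in 12 further columns, were not used.

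Expected counts were rounded and fitted for the 3 groups with edgeR 4.0.16 in R 4.3.3 (filterByExpr, TMM, quasi-likelihood), and p-values were adjusted by Benjamini-Hochberg over 11949 genes. All 9 tubulins passed the filter. A call needed a 2-fold change or more with an adjusted p no larger than 0.001. Each SE is the log2 fold change divided by the root of its F statistic, and intervals use it with the fit's degrees of freedom. Shares and sums were tested by exact permutation over libraries. Alternatives used DESeq2 1.42.0 and limma 3.58.1 on log2 of TPM or FPKM with pseudocounts of 1 and 0.1. The procedure was run on simulated counts with 200 changed genes, equally many raised and lowered. That setting lacks the large difference in TMM factors seen here, so it does not test the choice of scaling. Counting limits cover counting error only.

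The members and lists were chosen with earlier results of these data known. All 9 members are named, and from each list up to 2 called genes of largest rise and fall in Cadict against Ctrl with at least 10 CPM on average and no overlap, plus the 5 genes most like the tubulin sum. Scaper, Mzt1, Tbcc, Tuba3b, Tuba4a and Mapt stand outside this rule. Sequences came from GENCODE M21 (GRCm38) and the RefSeq promoter table (GRCm38.p6), in which 7 of 9 members were matched.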

Additional observations from a re-analysis of the deposited data

How the results depend on the processing

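Whether most tubulins count as called depended on scaling. With library totals, on which the median of all genes was -1.08 in Cadict against Ctrl and -0.98 against Cu-Cys, 7 and 6 tubulins were called, all lower, while Tuba1c stayed above 0 and was no longer called (0.54 and 0.42). The limma fits gave 7 and 6 with TPM + 1, 7 and 7 with TPM + 0.1, and 7 and 6 with FPKM + 1. The share of all genes called with library totals or in the limma fits is not given. Without it, these larger counts cannot show whether the tubulins stand apart from other genes. With an adjusted p of 0.05 and no fold limit, 9 tubulins passed in Cadict and 4 in Cu-Cys, both against Ctrl, and 8 between the treatments. Tubb2a in Cadict against Ctrl turned from 0.63 to -0.33 with library totals, -0.65 with TPM + 1, -0.68 with TPM + 0.1 and -0.31 with FPKM + 1, and the sum of Tubb2a and Tubb2b to -0.51 with library totals. Tubb2b in Cadict against Cu-Cys turned from 0.01 to -0.87, -0.69, -1.08 and -0.45 in the same order. The Tubb2b share difference between Cadict and Ctrl turned from 0.00721 to -0.0226 percentage points without Cadict replicate 1, reached 0.0287 without Cadict replicate 2, and the test over 3 groups no longer passed in 7 of the 9 fits that left out a library.

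Leaving out each library in turn gave 2 to 3 tubulins called in Cadict against Ctrl (Tubb5 was lost without Cadict replicate 1 or 3), 3 between the treatments and 0 for Cu-Cys, an alpha share difference of 9.49 to 10.4 points, a difference in summed TPM of -4519 to -4487, and 8 to 9 isotype shares that passed. Asking for 10 counts per library in all libraries changed no count of called tubulins, and fitting all genes without a filter added a call of Tubb5 in Cadict against Cu-Cys (-1.01). Same-numbered replicates had residual correlations of -0.192 to 0.161 over 8551 genes, so the numbers were not taken as pairs, and the fit with the replicate block called 3, 0 and 3 tubulins. Tubb2b, at 17.9 to 81.5 counts per library, is the value most limited by depth. Summing genes that share reads and the scaling of the lists were chosen after seeing the data.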
